A study of Mus musculus with 12 samples.

Results

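The genes described here are the cytochrome P450s of families 1, 2 and 3 in mouse liver, with Por, the gene of the reductase that feeds them electrons. Of 22618 genes in the count table, 57 had a symbol starting with Cyp1, Cyp2 or Cyp3 and a letter, or were Por, with pseudogenes left out. Of those, 43 had a mean of at least 1 CPM (counts per 1000000 of the TMM-adjusted library size) and are described, 42 of them P450s. The other 14 lay below that level. Cytochrome P450s of these families are haem enzymes of the endoplasmic reticulum. They hydroxylate drugs and pollutants as the opening step of their removal, and many also act on steroids, fatty acids and bile acids. Hepatocytes hold most of them, many around the central vein, and their genes are classic targets of the xenobiotic receptors CAR, PXR and AHR, of growth hormone and of clock-output transcription factors.

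The livers came from male Cry1/2 double-knockout (DKO) mice, C57BL/6j, aged 12 to 16 weeks, conventionally raised and fed at night. Cry1 and Cry2 encode the cryptochromes, repressors of the circadian clock. Every group shared this genotype and feeding schedule, and wild-type libraries were not analysed here. The 12 libraries of total RNA comprised 2 at each of 6 zeitgeber times, in hours after lights-on: ZT14, ZT18 and ZT22, together the night group of 6, and ZT02, ZT06 and ZT10, the day group of 6. Dark is taken to begin at ZT12, by convention. The labels do not say that the libraries are separate animals. The p-values set differences between times against the spread among these libraries, and cannot be taken to hold for other animals. The question the design poses is which transcripts still vary with time of day in livers without cryptochromes.

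Library totals ran from 34715506 to 46074052 counts. A count of 0 allowed up to 0.0651 CPM in the largest library and 0.0864 CPM in the smallest (3 counts; counting error only). Cry1 had 5.71 to 13.6 CPM and Cry2 12.4 to 22.8 CPM. Without a wild-type library these levels do not check the genotype. The 6 hepatocyte markers together summed to 73370 to 82270 CPM at night and 79760 to 107100 CPM by day, and none of them was at 0. Libraries of one time point did not always pair with each other. After each gene was centred and scaled over the libraries, ZT02 replicate 1 correlated at 0.485 with ZT06 replicate 1 and at 0.152 with ZT02 replicate 2, across 9876 genes. ZT02 replicate 2 likewise correlated at 0.494 with ZT06 replicate 2, while the 2 ZT06 libraries correlated at 0.0684. Genes are not independent, and these values are descriptions. In bulk liver, fewer cells of a type and less RNA per cell cannot be told apart.

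Most of these P450s showed no daily difference that passed the tests, and 9 of the 43 genes passed at least 1 of 3 tests. The 24 h test asks for a daily wave, the night test contrasts ZT14, ZT18 and ZT22 with ZT02, ZT06 and ZT10, and the last asks for any difference among the 6 times. Calls were made with edgeR's quasi-likelihood test, at p under 0.05 after Benjamini-Hochberg adjustment over all 17142 genes tested. In the night test 3 of the 43 genes were higher at night (6.98%, against 4.80% of all genes tested), namely Cyp2u1, Cyp2d40 and Cyp2d11. Another 6 were lower at night (14%, against 4.89% of all genes tested), namely Por, Cyp2c38, Cyp2j9, Cyp2c54, Cyp2b9 and Cyp3a25. The 24 h test called 6 of the 43 (14%, against 12.0% of all genes tested), a share near the background. The test of any time difference also called 6 (14%, against 4.82% of all genes tested), the same genes: Por, Cyp2c38, Cyp2c54, Cyp2j9, Cyp2d40 and Cyp2u1. Without ZT18 replicate 1 or without ZT18 replicate 2 that test called 0 of the 43, so all 6 genes lost this call. Without ZT14 replicate 1 it called 2, and without ZT22 replicate 1 or without ZT22 replicate 2 it called 3. Some of the 6 therefore lost the call in those fits too. Over all genes the calls of this test fell from 826 to 174 and 184 without ZT18 replicate 1 and 2. They fell to 338 without ZT14 replicate 1, and to 363 and 486 without ZT22 replicate 1 and 2. In either direction the night test called 9 of the 43, against 9.70% of all genes tested. Among the 13133 genes at 1 CPM or more the shares called were 5.65% higher at night, 6.18% lower at night, 14.5% in the 24 h test and 6.14% for any time difference. Leaving out ZT02 replicate 2 with ZT06 replicate 1, or ZT02 replicate 1 with ZT06 replicate 2, ended the night calls of Cyp2b9, Cyp2c54, Cyp2d11 and Cyp3a25 (adjusted p 0.0601 to 0.125) and the 24 h call of Cyp2c54 (0.160 and 0.198), and kept the other calls of both tests. The median log2 night minus day was -0.14 over the 43 genes and 0.01 over all genes tested, with 16 of the 43 positive and 27 negative.

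**Figure D1:**
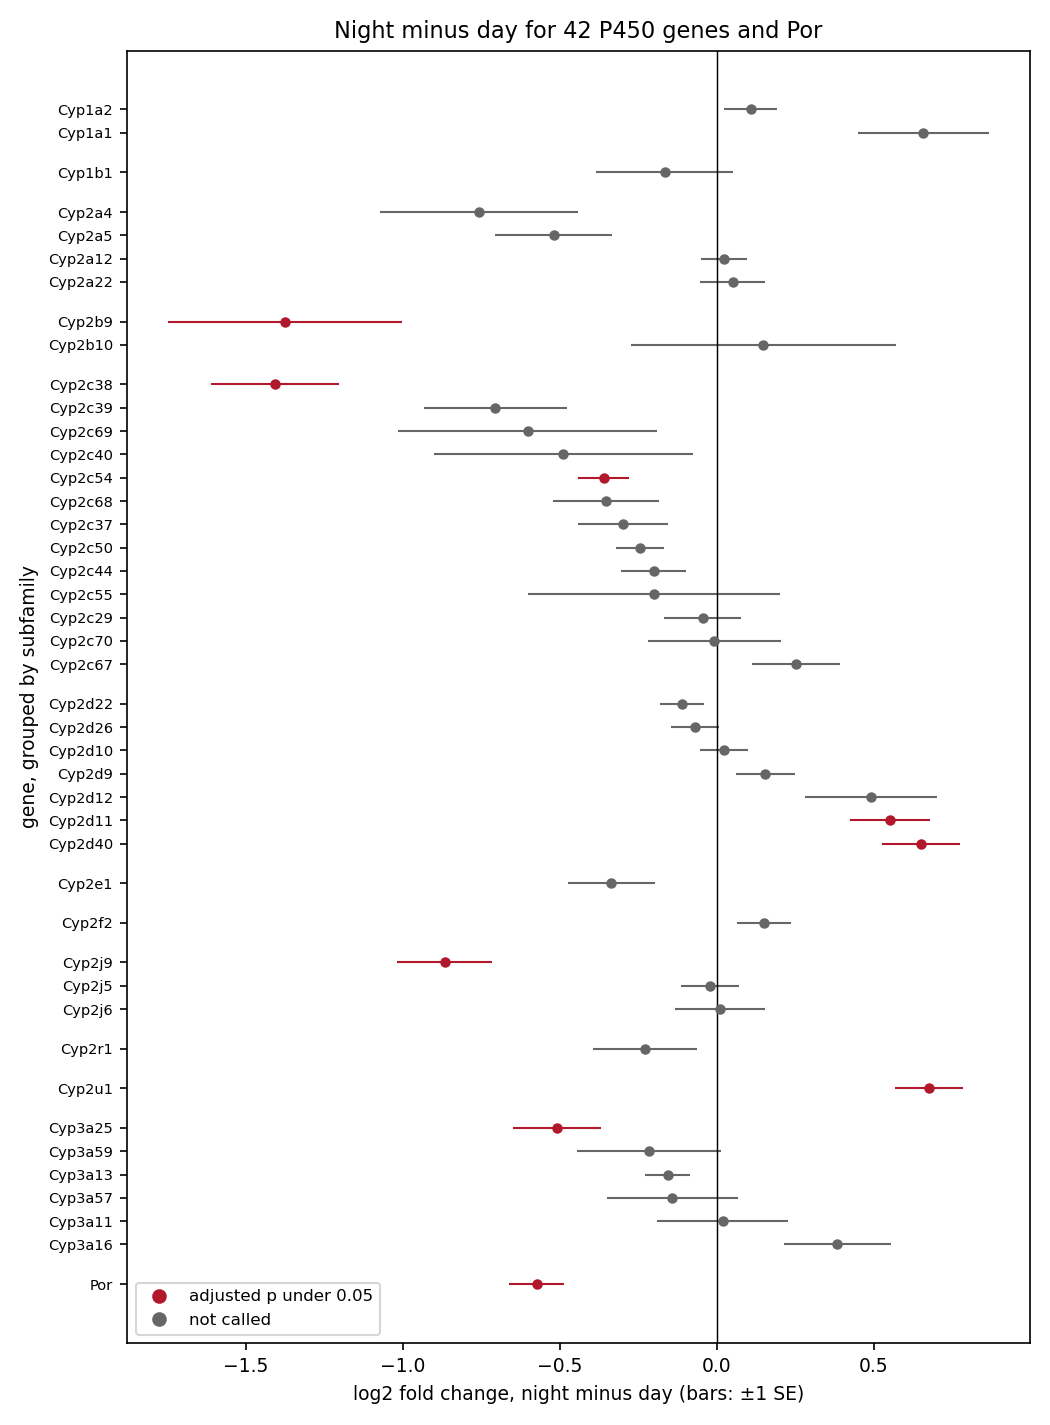
Log2 night minus day with its SE for each of the 43 genes, grouped by subfamily, 6 libraries a group, with called genes in red and the rest in grey. The 3 genes called higher at night lie between 0.55 and 0.68 and the 6 called lower between -0.36 and -1.41.

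The promoters of Por, Cyp2c38, Cyp2j9 and Cyp2d40 are shown first. They are 4 of the 5 genes whose night and 24 h calls both held in all 21 fits, and Cyp2u1 is the other. Promoter sequences are from RefSeq on GRCm38.p6, from 250 bases before to 50 after the start, and 38 of the 43 genes matched an entry. Capitals mark any match to 1 of 4 motifs searched on both strands: the E-box CACGTG, bound by clock activators, the D-box TTANGTAA, bound by DBP, TEF and HLF, the STAT motif TTCNNNGAA, and the nuclear receptor hexamer AGGTCA. The windows lie at chr5:135688895-135689194, plus strand (Por), chr19:39463026-39463325, minus strand (Cyp2c38), chr4:96591436-96591735, minus strand (Cyp2j9) and chr15:82764073-82764372, minus strand (Cyp2d40). The Por, Cyp2j9 and Cyp2d40 windows follow RefSeq starts that lie inside the GENCODE spans of these genes, furthest for Por, and not at their first annotated bases.
Por: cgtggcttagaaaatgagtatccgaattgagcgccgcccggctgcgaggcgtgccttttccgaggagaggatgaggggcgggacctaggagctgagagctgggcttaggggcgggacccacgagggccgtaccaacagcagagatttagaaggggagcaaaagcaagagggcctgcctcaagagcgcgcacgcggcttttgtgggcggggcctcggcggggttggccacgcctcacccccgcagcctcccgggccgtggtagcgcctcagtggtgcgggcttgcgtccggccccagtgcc
Cyp2c38: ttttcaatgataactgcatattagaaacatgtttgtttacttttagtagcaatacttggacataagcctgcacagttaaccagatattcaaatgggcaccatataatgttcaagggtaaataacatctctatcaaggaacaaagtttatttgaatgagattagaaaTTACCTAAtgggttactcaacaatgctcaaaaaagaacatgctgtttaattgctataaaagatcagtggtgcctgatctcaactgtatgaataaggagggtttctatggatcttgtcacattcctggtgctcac
Cyp2j9: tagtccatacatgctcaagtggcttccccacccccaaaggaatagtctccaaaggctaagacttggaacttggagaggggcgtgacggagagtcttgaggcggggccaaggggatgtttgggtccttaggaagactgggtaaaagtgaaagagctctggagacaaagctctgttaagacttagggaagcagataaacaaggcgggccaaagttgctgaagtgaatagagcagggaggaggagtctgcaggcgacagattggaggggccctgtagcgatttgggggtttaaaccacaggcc
Cyp2d40: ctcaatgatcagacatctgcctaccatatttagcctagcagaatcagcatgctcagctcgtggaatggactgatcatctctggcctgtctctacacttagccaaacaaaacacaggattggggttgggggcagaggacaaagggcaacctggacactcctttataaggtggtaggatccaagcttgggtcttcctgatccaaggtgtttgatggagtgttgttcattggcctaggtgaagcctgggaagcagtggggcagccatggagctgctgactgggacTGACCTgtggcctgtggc
Cyp2c38 held the only D-box match among the 38 promoters, read on the reverse strand and starting 84 bases before the start, where 2.34% of all 27025 promoters held one. Cyp2d40 held a hexamer match on the reverse strand, 33 bases past the start. The Por and Cyp2j9 windows held no match to the 4 motifs. The hexamer was found in 13 of the 38 promoters (34.2%, against 16% of all promoters), among them those of Cyp3a11, Cyp3a25, Cyp2b9 and Cyp2a5. An E-box was found in 1 of the 38, that of Cyp2j6, against 7.24% of all promoters. No STAT motif was found in the 38, against 8.47% of all promoters. A match is a run of letters and does not show that a factor binds.

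Por was lower at night in every library. Por (ENSMUSG00000005514, chr5:135670033-135735326, plus strand, mm10) encodes the flavoprotein that passes electrons from NADPH to all microsomal P450s. At night Por had 375 and 301 CPM at ZT14, 264 and 255 CPM at ZT18, and 302 and 339 CPM at ZT22. By day Por had 423 and 549.5 CPM at ZT02, 431 and 464 CPM at ZT06, and 414 and 439 CPM at ZT10. All 6 night libraries lay below all 6 day libraries, which 2.10% of all genes tested did, and no other of the 43 genes did. In 0 of the 43 did all night libraries lie above all day libraries, against 1.60% of all genes tested. Por averaged 306 ± 45.4 CPM at night and 454 ± 50 CPM by day (SD, n = 6 each; log2 night minus day -0.57 ± 0.0877 (SE), adjusted p = 0.00495, edgeR). Its 24 h range, the fitted peak divided by the fitted trough, was 1.79-fold (95% interval 1.43 to 2.23), peaking at ZT5.72 (adjusted p = 0.00780, edgeR). Any time difference gave an adjusted p of 0.0320. The night and 24 h calls held without any 1 library. The call for any time difference was lost at least without ZT18 replicate 1 or without ZT18 replicate 2. The night difference was -0.52 without ZT02 replicate 2 and ZT06 replicate 1 and -0.61 without ZT02 replicate 1 and ZT06 replicate 2. A processed pseudogene on the opposite strand, Gm16061, had a mean of 16.1 counts, against 14812 for Por. The other electron partners did not pass. Of 5 listed genes 4 were in the table, cytochrome b5 (Cyb5), its outer-membrane form Cyb5b, the b5 reductase Cyb5r3 and Pgrmc1, and 0 were called in the night or 24 h test by edgeR or DESeq2. At an unadjusted p under 0.05 edgeR had 0 and DESeq2 1, in the 24 h test. The most abundant of them were Pgrmc1, a haem protein that binds P450s, with a mean of 1189 CPM, and Cyb5 with 794.5 CPM.

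**Figure D2:**
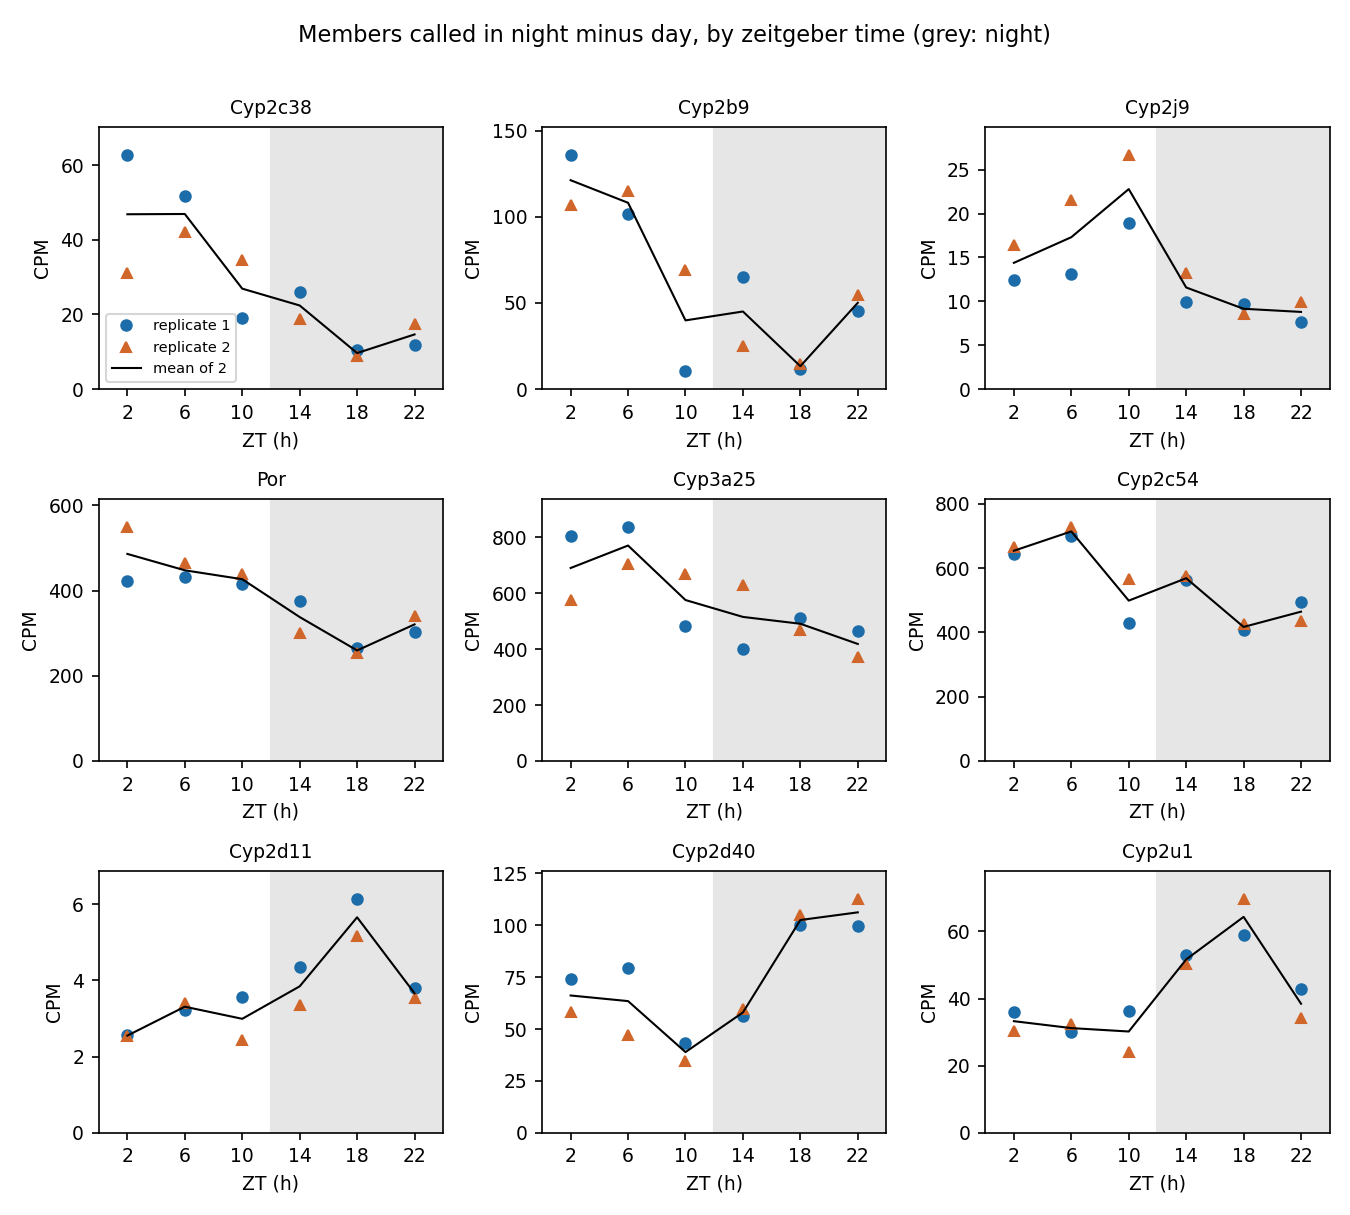
CPM of the 9 called genes in each library by zeitgeber time in hours, with circles for replicate 1, triangles for replicate 2, a line through the means of the 2 and grey for night. Por, Cyp2c38, Cyp2j9, Cyp2c54, Cyp2b9 and Cyp3a25 sit lower at night, and Cyp2u1, Cyp2d40 and Cyp2d11 higher.

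Family 1 holds the AHR-inducible enzymes, and edgeR called 0 of its 3 genes, with Cyp1a1 alone at an unadjusted p under 0.05 in the night and 24 h tests. Cyp1a2, which oxidises caffeine and aromatic amines and is made constitutively in liver, was the most abundant per kb of merged exons, the scale on which the most abundant gene of each subfamily was taken. At night Cyp1a2 had 336 and 321 CPM at ZT14, 362 and 352 CPM at ZT18, and 337 and 281 CPM at ZT22. By day Cyp1a2 had 391 and 306 CPM at ZT02, 351 and 295 CPM at ZT06, and 246 and 267 CPM at ZT10. The groups overlapped, the lowest pair of libraries was at ZT10, and the averages were 331 ± 28.4 CPM at night and 309 ± 53.7 CPM by day (SD, n = 6 each; log2 night minus day 0.11 ± 0.0850 (SE), adjusted p = 0.453, edgeR). Cyp1a1, the classic target of the dioxin receptor AHR, was scarce, at 3.01 CPM at night (1.46 to 3.51) and 1.67 CPM by day (1.38 to 2.57) by median and range. Its night difference missed the threshold (log2 night minus day 0.66 ± 0.209 (SE), adjusted p = 0.0727, edgeR). It passed both the night and the 24 h test without ZT22 replicate 2, its lowest night library, with an adjusted p of 0.0198 in the night test and 0.0111 in the 24 h test. DESeq2 also called it in both, with adjusted p of 0.0273 in the night test and 0.0156 in the 24 h test. Cyp1b1, a P450 mostly found outside the liver, had the lowest level per length of the 43 genes. At night Cyp1b1 had 1.29 and 1.26 CPM at ZT14, 0.657 and 1.14 CPM at ZT18, and 1.41 and 0.883 CPM at ZT22. By day Cyp1b1 had 0.942 and 0.854 CPM at ZT02, 0.824 and 1.55 CPM at ZT06, and 1.53 and 1.96 CPM at ZT10. Its highest library was at ZT10 and the groups overlapped (log2 night minus day -0.17 ± 0.219 (SE), adjusted p = 0.674, edgeR).

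In subfamily 2A edgeR called 0 of 4 genes in any test with all 12 libraries, with 2 at an unadjusted p under 0.05 in the night test. DESeq2 called 0 in the night test and 2 for any time difference. Cyp2a5, the mouse coumarin hydroxylase, which also oxidises nicotine, had the highest level per kb of merged exons. By mean CPM (572 against 425) and per kb of the longest coding transcript (340 against 211 CPM per kb) Cyp2a12 was above Cyp2a5. At night Cyp2a5 had 292 and 534 CPM at ZT14, 312 and 374 CPM at ZT18, and 250.2 and 297 CPM at ZT22. By day Cyp2a5 had 621 and 384 CPM at ZT02, 856 and 522 CPM at ZT06, and 284 and 376 CPM at ZT10. ZT06 replicate 1, ZT02 replicate 1 and ZT14 replicate 2 were its 3 highest libraries, so the groups overlapped. Cyp2a5 averaged 343 ± 102 CPM at night and 507 ± 209 CPM by day (SD, n = 6 each; log2 night minus day -0.52 ± 0.186 (SE), adjusted p = 0.101, edgeR). Without ZT14 replicate 2, its highest night library, edgeR called Cyp2a5 in the night test (adjusted p = 0.0391). Cyp2a4, a testosterone hydroxylase predominant in females, shared 11.2% of its exact 100-base windows with other genes and Cyp2a5 14.4%, so reads of the pair may be split between them. Cyp2a4 had 1.18 CPM at night (0.886 to 2.31) and 1.88 CPM by day (0.827 to 4.82) by median and range. Cyp2a12, a steroid hydroxylase, was the steadiest of the 4, at 577 CPM at night (507 to 648) and 572 CPM by day (499 to 627), and Cyp2a22 had 10.5 CPM at night (8.62 to 13.7) and 10.6 CPM by day (7.22 to 15.04).

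Subfamily 2B had 1 call among 2 genes. Cyp2b9 (chr7:26173411-26210661, plus strand), a P450 predominant in female liver, was lower at night. At night Cyp2b9 had 65.2 and 24.9 CPM at ZT14, 12.0 and 14.7 CPM at ZT18, and 45.5 and 54.7 CPM at ZT22. By day Cyp2b9 had 136 and 107 CPM at ZT02, 101 and 115 CPM at ZT06, and 10.5 and 69.3 CPM at ZT10. Of the day libraries 5 lay above all 6 night libraries, and ZT10 replicate 1 lay below all of them. Cyp2b9 averaged 36.1 ± 22.1 CPM at night and 89.7 ± 44.4 CPM by day (SD, n = 6 each; log2 night minus day -1.38 ± 0.372 (SE), adjusted p = 0.0426, edgeR). The 24 h range was 6.31-fold (95% interval 1.78 to 22.4), peaking at ZT3.84, and its test missed the threshold (adjusted p = 0.0508, edgeR). The night call was lost without any 1 library other than ZT10 replicate 1, with adjusted p of 0.0533 to 0.126 in those 11 fits. Without ZT10 replicate 2 the night difference shrank to a log2 value of -0.73. The night call was also lost with limma-voom (adjusted p = 0.0742). The 24 h test did call Cyp2b9 with limma-voom (adjusted p = 0.0397) and with DESeq2 (adjusted p = 0.0261). In edgeR it did so with no low-count filter, with a filter on mean CPM, and without ZT10 replicate 1 or ZT14 replicate 1. Under the remaining alternatives the 24 h test did not call it. Cyp2b10, the classic phenobarbital-inducible gene of CAR, was not called by edgeR and was described after its values were seen. At night Cyp2b10 had 24.2 and 27.8 CPM at ZT14, 23.1 and 39.0 CPM at ZT18, and 12.4 and 3.07 CPM at ZT22. By day Cyp2b10 had 27.4 and 10.1 CPM at ZT02, 58.5 and 17.7 CPM at ZT06, and 2.93 and 9.78 CPM at ZT10. Its highest library had 19.9 times the level of its lowest, and the 2 libraries of a time point differed by a median of 3.01-fold, more than for any other of the 43 genes. The averages were 21.6 ± 12.5 CPM at night and 21.1 ± 20.1 CPM by day (SD, n = 6 each; log2 night minus day 0.15 ± 0.422 (SE), adjusted p = 0.858, edgeR).

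Subfamily 2C, the largest with 13 genes, had 2 lower at night and 0 higher. These enzymes are known mostly as epoxygenases of arachidonic acid as well as drug oxidases. Log2 night minus day was negative in 12 of the 13 and positive in Cyp2c67, with a median of -0.30, against 0.01 over all genes tested. The negative values of Cyp2c70 (-0.01 ± 0.211), Cyp2c29 (-0.05 ± 0.123) and Cyp2c55 (-0.20 ± 0.402) were smaller than their SE. Several 2C genes share sequence windows, so their signs are not independent. Cyp2c38 (chr19:39389556-39463075, minus strand) had the largest difference of the called genes, and its promoter is shown above. At night Cyp2c38 had 26.1 and 18.7 CPM at ZT14, 10.6 and 8.76 CPM at ZT18, and 11.9 and 17.4 CPM at ZT22. By day Cyp2c38 had 62.7 and 31.0 CPM at ZT02, 51.7 and 42.1 CPM at ZT06, and 19.1 and 34.7 CPM at ZT10. The 2 ZT18 libraries and ZT22 replicate 1 were the 3 lowest, and only ZT10 replicate 1 among the day libraries lay within the night range. Cyp2c38 averaged 15.6 ± 6.46 CPM at night and 40.2 ± 15.5 CPM by day (SD, n = 6 each; log2 night minus day -1.41 ± 0.204 (SE), adjusted p = 0.00401, edgeR). Its 24 h range was 4.37-fold (95% interval 2.26 to 8.43), peaking at ZT5.84 (adjusted p = 0.00921; any time difference, adjusted p = 0.0206, edgeR). Cyp2c38 shared no exact 100-base window with another gene. Its night difference was -1.49 when ZT02 replicate 2 and ZT06 replicate 1 were left out and -1.25 when ZT02 replicate 1 and ZT06 replicate 2 were, called in both.

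Cyp2c54 (chr19:40037940-40073827, minus strand), a neighbouring epoxygenase gene, was lower at night by a smaller amount. At night Cyp2c54 had 562 and 575 CPM at ZT14, 407 and 427 CPM at ZT18, and 494 and 435 CPM at ZT22. By day Cyp2c54 had 643 and 665 CPM at ZT02, 699.8 and 728 CPM at ZT06, and 430.0 and 567 CPM at ZT10. The 4 libraries of ZT02 and ZT06 lay above every night library, and ZT10 replicates 1 and 2 lay within the night range. Averages of 483 ± 72.1 CPM at night and 622 ± 109 CPM by day (SD, n = 6 each) gave a log2 night minus day of -0.36 ± 0.0806 (SE), adjusted p = 0.0213 (edgeR). The 24 h range was 1.54-fold (95% interval 1.16 to 2.03), peaking at ZT5.61 (adjusted p = 0.0483; any time difference, adjusted p = 0.0366, edgeR). The night call was lost without ZT02 replicate 2, ZT14 replicate 1, ZT18 replicate 1, ZT18 replicate 2 or ZT22 replicate 2 (adjusted p 0.0567 to 0.0756), and leaving out 1 library ended the 24 h call in 9 of 12 fits (adjusted p 0.0687 to 0.126), kept only without ZT10 replicate 1, ZT14 replicate 1 or ZT14 replicate 2. Cyp2c54 shared 7.59% of its windows, with Cyp2c50 and Cyp2c37.

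The other 11 genes of 2C were not called by edgeR with all 12 libraries. Without ZT10 replicate 1 edgeR called Cyp2c39, Cyp2c50 and Cyp2c70 in the 24 h test. It also called Cyp2c39 in that test without ZT14 replicate 1, and Cyp2c50 in the night test without ZT06 replicate 2. DESeq2 called Cyp2c39 (adjusted p = 0.0285 in the night test and 0.0119 in the 24 h test) and Cyp2c50 (adjusted p = 0.0181 in the night test and 0.0149 in the 24 h test). Cyp2c29, the most abundant, is an epoxygenase also induced through CAR. At night Cyp2c29 had 1752 and 1984 CPM at ZT14, 1979 and 2190 CPM at ZT18, and 2125 and 2082 CPM at ZT22. By day Cyp2c29 had 2540 and 2116 CPM at ZT02, 3082 and 1925 CPM at ZT06, and 1735 and 1352 CPM at ZT10. ZT06 replicate 1 and ZT02 replicate 1 were the highest and both ZT10 libraries the lowest, with averages of 2019 ± 154 CPM at night and 2125 ± 613 CPM by day (SD, n = 6 each; log2 night minus day -0.05 ± 0.123 (SE), adjusted p = 0.851, edgeR). Cyp2c50 had 1130 CPM at night (1021 to 1299) and 1390 CPM by day (1132 to 1635) by median and range, with an adjusted p of 0.0689 in the night test. Cyp2c39, known as a retinoic acid hydroxylase, had 1.37 CPM at night (1.26 to 2.28) and 2.43 CPM by day (1.13 to 4.10), with an adjusted p of 0.0761. Cyp2c37 and Cyp2c44, further epoxygenases, had 532 CPM at night (376 to 649.9) and 633 CPM by day (542 to 784), and 272 CPM at night (212 to 307) and 313 CPM by day (246 to 389.9). Neither was called by edgeR in any test.

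Several 2C genes differed more between the 2 libraries of a time point than between night and day, and they were picked out after their values were seen. Cyp2c70, the enzyme that makes muricholic acids in mice, had 533 CPM at night (451 to 962) and 645 CPM by day (316 to 1042) by median and range. Its 2 ZT10 libraries had 1042 and 399 CPM, its highest and its second lowest level. The log2 night minus day was -0.01 (adjusted p = 0.988, edgeR). The 24 h test of edgeR called Cyp2c70 without ZT10 replicate 1 (adjusted p = 0.0318). Cyp2c40 and Cyp2c69, both predominant in females, differed 5.02-fold and 5.86-fold between the 2 ZT14 libraries. Cyp2c40 had 25.1 CPM at night (10.01 to 50.3) and 32.3 CPM by day (13.0 to 112), and its adjusted p for night minus day was 0.490. Cyp2c69 had 14.95 CPM at night (4.81 to 29.7) and 20.5 CPM by day (8.69 to 59.8), with an adjusted p of 0.383. These 2 genes share much of their sequence: 44.1% of the windows of Cyp2c40 and 36.3% of those of Cyp2c69 were shared with other genes, as were 23.7% of Cyp2c67 and 19.8% of Cyp2c68, so their separate levels are uncertain. Cyp2c67 had 219 CPM at night (164 to 329) and 199 CPM by day (140.0 to 233), and Cyp2c68 had 164 CPM at night (95.3 to 197) and 185 CPM by day (108 to 308). Cyp2c55 differed 3.91-fold between the 2 ZT06 libraries and had 3.69 CPM at night (1.45 to 4.54) and 2.31 CPM by day (1.45 to 8.79).

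**Figure D3:**
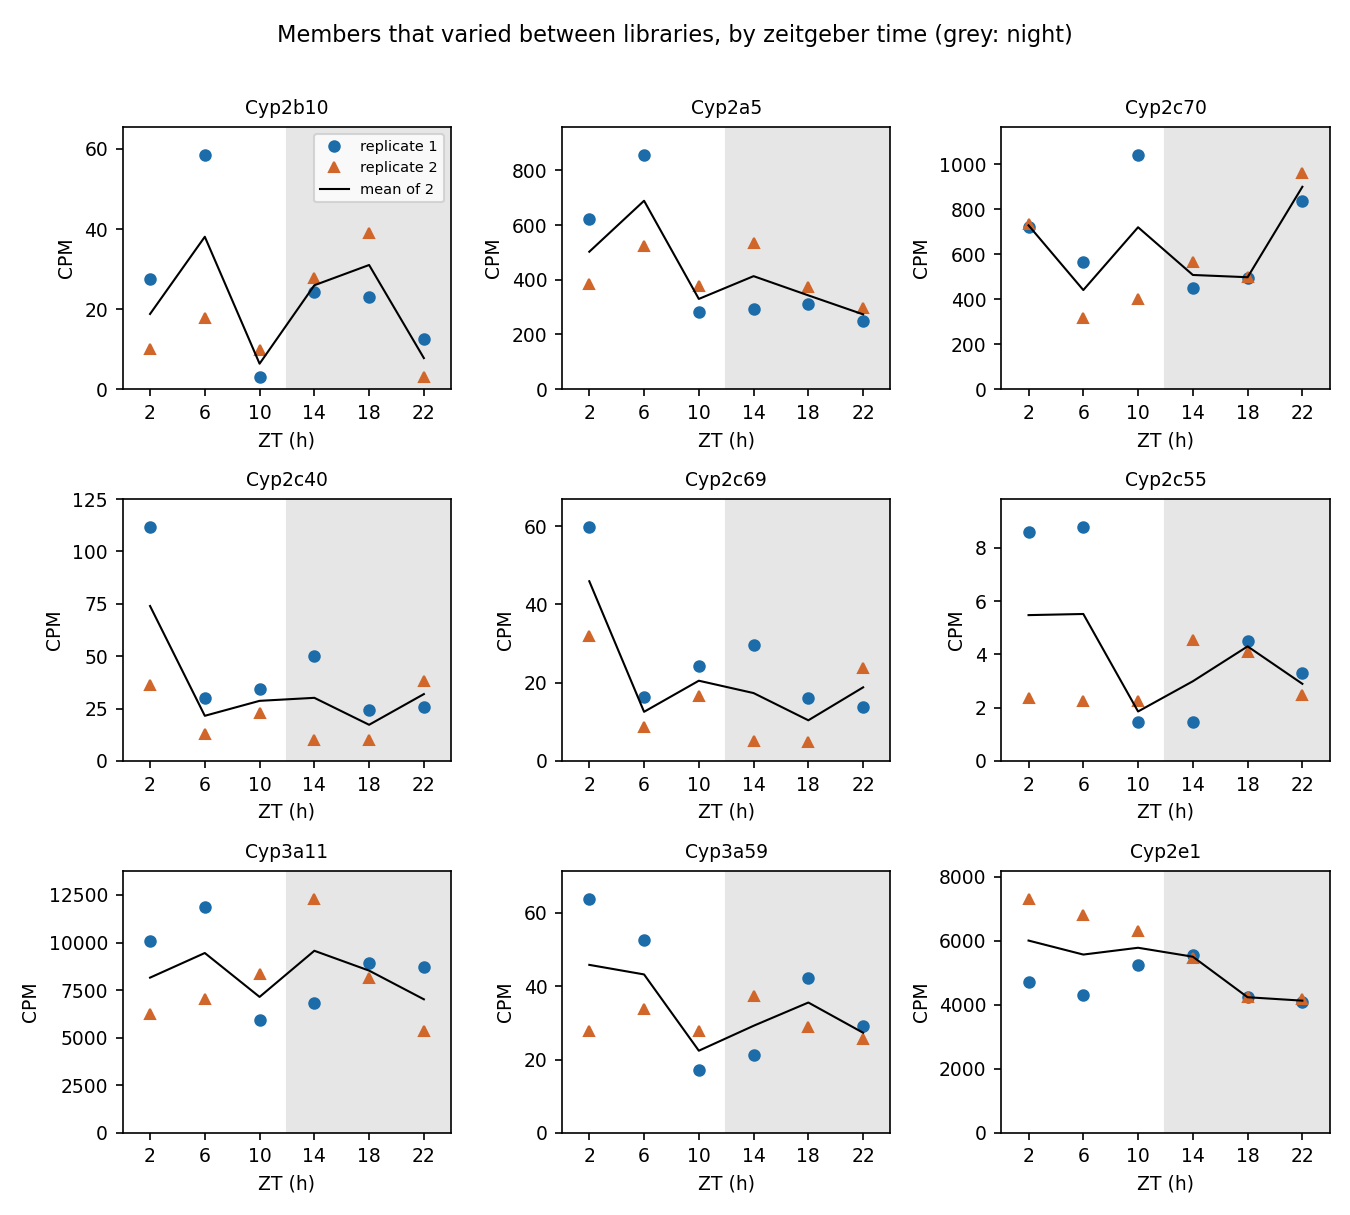
CPM of Cyp2b10, Cyp2a5, Cyp2c70, Cyp2c40, Cyp2c69, Cyp2c55, Cyp3a11, Cyp3a59 and Cyp2e1 in each library by zeitgeber time, none of them called by edgeR in any of the 3 tests with all 12 libraries. In several panels the points of one time lie far apart, up to 5.86-fold for Cyp2c69 at ZT14. The median fold between them was 1.11 for Cyp2e1 and 1.2 for Cyp2c70.

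Subfamily 2D had 2 genes higher at night and 0 lower among 7, with 5 positive and 2 negative and a median log2 night minus day of 0.15. Cyp2d40 (chr15:82759833-82764183, minus strand) lies in the 2D gene cluster and was called by edgeR in all 3 tests. The call of Cyp2d40 for any time difference was lost at least without ZT18 replicate 1 or without ZT18 replicate 2. At night Cyp2d40 had 56.4 and 59.7 CPM at ZT14, 100.0 and 105 CPM at ZT18, and 99.7 and 113 CPM at ZT22. By day Cyp2d40 had 74.1 and 58.3 CPM at ZT02, 79.6 and 47.4 CPM at ZT06, and 43.4 and 34.4 CPM at ZT10. The 4 libraries of ZT18 and ZT22 were its highest, and those of ZT14 lay within the day range. Cyp2d40 averaged 88.9 ± 24.5 CPM at night and 56.2 ± 17.8 CPM by day (SD, n = 6 each; log2 night minus day 0.65 ± 0.123 (SE), adjusted p = 0.0111, edgeR). Its 24 h range was 2.49-fold (95% interval 1.69 to 3.67), peaking at ZT21.1 (adjusted p = 0.00870; any time difference, adjusted p = 0.0206, edgeR). Its night difference was 0.74 when ZT02 replicate 2 and ZT06 replicate 1 were left out and 0.61 when ZT02 replicate 1 and ZT06 replicate 2 were, called in both. It shared no exact window with another gene.

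Cyp2d11 (chr15:82389154-82394022, minus strand) was higher at night at a low level. At night Cyp2d11 had 4.35 and 3.35 CPM at ZT14, 6.15 and 5.17 CPM at ZT18, and 3.80 and 3.53 CPM at ZT22. By day Cyp2d11 had 2.57 and 2.53 CPM at ZT02, 3.22 and 3.40 CPM at ZT06, and 3.56 and 2.43 CPM at ZT10. ZT14 replicate 2 and ZT22 replicate 2 lay within the day range, and the other night libraries lay above it. Cyp2d11 averaged 4.39 ± 1.08 CPM at night and 2.95 ± 0.498 CPM by day (SD, n = 6 each; log2 night minus day 0.55 ± 0.127 (SE), adjusted p = 0.0239, edgeR), and the 24 h test missed the threshold (adjusted p = 0.0540). The night call was lost without ZT02 replicate 2, ZT14 replicate 1, ZT18 replicate 1, ZT22 replicate 1 or ZT22 replicate 2 (adjusted p 0.0516 to 0.0781). Cyp2d11 shared 12.2% of its windows with Cyp2d10 and Cyp2d9, which are far more abundant. Per kb of merged exons Cyp2d10 had the highest level of 2D, at 502 against 479 CPM per kb for Cyp2d9. By mean CPM (1273 against 827.5) and per kb of the longest coding transcript (744 against 502 CPM per kb) Cyp2d9 was above Cyp2d10. At night Cyp2d10 had 900.3 and 784 CPM at ZT14, 877 and 836 CPM at ZT18, and 789 and 819 CPM at ZT22. By day Cyp2d10 had 749 and 874 CPM at ZT02, 887 and 843 CPM at ZT06, and 842 and 732 CPM at ZT10. It was the steadiest of the 43 genes, its highest library having 1.23 times the level of its lowest, with averages of 834 ± 46.8 CPM at night and 821 ± 65.2 CPM by day (SD, n = 6 each; log2 night minus day 0.02 ± 0.0760 (SE), adjusted p = 0.879, edgeR). The remaining 2D genes were not called by edgeR. Cyp2d9, a male-predominant testosterone hydroxylase, had 1405 CPM at night (1015 to 1505) and 1170 CPM by day (988 to 1515) by median and range. Cyp2d26 had 798 CPM at night (769 to 839) and 851 CPM by day (710.4 to 959), Cyp2d22 183 CPM at night (175 to 219.5) and 210.2 CPM by day (150.1 to 243), and Cyp2d12 3.48 CPM at night (2.15 to 4.59) and 2.03 CPM by day (1.87 to 3.21).

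Subfamilies 2E and 2F have 1 gene each here, and neither was called by edgeR, DESeq2 or limma-voom with all 12 libraries. Cyp2e1 alone had an unadjusted p under 0.05 in the night test. Cyp2e1 oxidises ethanol and turns acetaminophen into its toxic quinone imine. At night Cyp2e1 had 5555 and 5454 CPM at ZT14, 4233 and 4243 CPM at ZT18, and 4087 and 4175 CPM at ZT22. By day Cyp2e1 had 4702 and 7316 CPM at ZT02, 4320 and 6823 CPM at ZT06, and 5246 and 6322 CPM at ZT10. ZT02 replicate 2, ZT06 replicate 2 and ZT10 replicate 2 were the 3 highest, whereas the replicate 1 libraries of ZT02, ZT06 and ZT10 lay within the night range. Cyp2e1 averaged 4624 ± 685 CPM at night and 5788 ± 1210 CPM by day (SD, n = 6 each; log2 night minus day -0.34 ± 0.138 (SE), adjusted p = 0.149, edgeR). Without ZT02 replicate 2 and ZT06 replicate 1 edgeR called Cyp2e1 in the 24 h test (adjusted p = 0.0310), with a range of 1.54-fold. Cyp2f2, which activates naphthalene and is known as a periportal gene in liver, was close to even. At night Cyp2f2 had 942 and 1002 CPM at ZT14, 1106 and 1181 CPM at ZT18, and 1078 and 798 CPM at ZT22. By day Cyp2f2 had 944 and 901 CPM at ZT02, 1012 and 909 CPM at ZT06, and 831 and 888 CPM at ZT10. The groups overlapped, with averages of 1018 ± 136 CPM at night and 914 ± 60.5 CPM by day (SD, n = 6 each; log2 night minus day 0.15 ± 0.0860 (SE), adjusted p = 0.295, edgeR).

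Subfamily 2J, which also acts on arachidonic acid, had 1 gene lower at night among 3. Cyp2j9 (chr4:96568429-96591578, minus strand) was called by edgeR in all 3 tests. Its call for any time difference was lost with limma-voom, and at least without ZT18 replicate 1 or ZT18 replicate 2. At night Cyp2j9 had 9.98 and 13.2 CPM at ZT14, 9.72 and 8.59 CPM at ZT18, and 7.65 and 9.95 CPM at ZT22. By day Cyp2j9 had 12.4 and 16.4 CPM at ZT02, 13.1 and 21.5 CPM at ZT06, and 18.9 and 26.7 CPM at ZT10. ZT10 replicate 2 and ZT06 replicate 2 were the highest, and of the night libraries only ZT14 replicate 2 reached the day range. Cyp2j9 averaged 9.84 ± 1.87 CPM at night and 18.2 ± 5.41 CPM by day (SD, n = 6 each; log2 night minus day -0.87 ± 0.151 (SE), adjusted p = 0.00808, edgeR). Its 24 h range was 2.45-fold (95% interval 1.63 to 3.67), peaking at ZT7.86 (adjusted p = 0.00771; any time difference, adjusted p = 0.0401, edgeR). The night difference was -0.89 without ZT02 replicate 2 and ZT06 replicate 1 and -0.79 without ZT02 replicate 1 and ZT06 replicate 2, called in both. Cyp2j9 shared no exact window with another gene. Cyp2j5, the most abundant of 2J, was not called. At night Cyp2j5 had 462 and 579 CPM at ZT14, 492 and 551 CPM at ZT18, and 582 and 539.6 CPM at ZT22. By day Cyp2j5 had 576 and 543 CPM at ZT02, 665 and 509 CPM at ZT06, and 457 and 513 CPM at ZT10. Both groups covered much the same values (log2 night minus day -0.02 ± 0.0913 (SE), adjusted p = 0.910, edgeR). Cyp2j6 had 59.6 CPM at night (50.5 to 73.1) and 54.0 CPM by day (44.8 to 92.4) by median and range and was not called.

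Cyp2u1 and Cyp2r1 are the only genes of their subfamilies. Cyp2u1 (chr3:131288441-131303227, minus strand), a hydroxylase of long-chain fatty acids, was higher at night. At night Cyp2u1 had 53.0 and 50.3 CPM at ZT14, 58.9 and 69.7 CPM at ZT18, and 42.8 and 34.1 CPM at ZT22. By day Cyp2u1 had 36.0 and 30.5 CPM at ZT02, 29.9 and 32.5 CPM at ZT06, and 36.2 and 24.2 CPM at ZT10. The 4 libraries of ZT14 and ZT18 and ZT22 replicate 1 lay above every day library, and ZT22 replicate 2 lay within the day range. Cyp2u1 averaged 51.5 ± 12.4 CPM at night and 31.5 ± 4.49 CPM by day (SD, n = 6 each; log2 night minus day 0.68 ± 0.108 (SE), adjusted p = 0.00575, edgeR). Its 24 h range was 2.06-fold (95% interval 1.46 to 2.90), peaking at ZT17.4 (adjusted p = 0.00975; any time difference, adjusted p = 0.0233, edgeR). Its night difference was 0.62 when ZT02 replicate 2 and ZT06 replicate 1 were left out and 0.74 when ZT02 replicate 1 and ZT06 replicate 2 were, called in both. An antisense gene overlaps Cyp2u1, 4930534D22Rik, with a mean of 12.4 counts against 1611 for Cyp2u1. Whether counting used strand is not given in the sources used here. Cyp2r1, a vitamin D hydroxylase, was not called. At night Cyp2r1 had 7.84 and 12.1 CPM at ZT14, 10.6 and 12.8 CPM at ZT18, and 14.2 and 14.9 CPM at ZT22. By day Cyp2r1 had 15.6 and 11.6 CPM at ZT02, 20.7 and 10.7 CPM at ZT06, and 12.0 and 13.6 CPM at ZT10. ZT06 replicate 1 was its highest library and ZT14 replicate 1 its lowest (log2 night minus day -0.23 ± 0.166 (SE), adjusted p = 0.413, edgeR).

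Subfamily 3A had 1 gene lower at night among 6. Cyp3a11, the main mouse counterpart of human CYP3A4 and a target of PXR, supplied 31.2% of the counts of the 43 genes. At night Cyp3a11 had 6832 and 12300 CPM at ZT14, 8914 and 8133 CPM at ZT18, and 8694 and 5338 CPM at ZT22. By day Cyp3a11 had 10090 and 6218 CPM at ZT02, 11880 and 7017 CPM at ZT06, and 5921 and 8363 CPM at ZT10. ZT14 replicate 2 and ZT06 replicate 1 were the highest and ZT22 replicate 2 and ZT10 replicate 1 the lowest, so night and day covered the same values. Cyp3a11 averaged 8368 ± 2343 CPM at night and 8249 ± 2353 CPM by day (SD, n = 6 each; log2 night minus day 0.02 ± 0.210 (SE), adjusted p = 0.968, edgeR), and the 95% interval of its 24 h range reached 1.90-fold. Cyp3a25 (chr5:145977194-146009618, minus strand), a testosterone-hydroxylating member of 3A, was lower at night. At night Cyp3a25 had 399 and 631 CPM at ZT14, 511 and 469.9 CPM at ZT18, and 464 and 373 CPM at ZT22. By day Cyp3a25 had 806 and 574 CPM at ZT02, 837 and 704 CPM at ZT06, and 484 and 667 CPM at ZT10. ZT02 replicate 1, ZT06 replicate 1, ZT06 replicate 2 and ZT10 replicate 2 lay above every night library. Averages of 475 ± 91.5 CPM at night and 679 ± 135 CPM by day (SD, n = 6 each) gave a log2 night minus day of -0.51 ± 0.140 (SE), adjusted p = 0.0451 (edgeR), and the 24 h test missed the threshold (adjusted p = 0.0723). Leaving out 1 library ended the night call in 9 of 12 fits (adjusted p 0.0578 to 0.120), kept only without ZT02 replicate 2, ZT10 replicate 1 or ZT14 replicate 2. Cyp3a25 shared 6.05% of its windows, with Cyp3a59. Cyp3a13 had 235 CPM at night (223 to 282) and 267 CPM by day (238 to 346) by median and range, and Cyp3a59, described after its values were seen, had 29.0 CPM at night (21.1 to 42.1) and 30.8 CPM by day (17.1 to 63.9). Cyp3a16 and Cyp3a57 were near 1 CPM, at 1.41 CPM at night (1.07 to 1.96) and 1.10 CPM by day (0.817 to 1.62), and 1.67 CPM at night (0.993 to 2.60) and 1.99 CPM by day (1.003 to 2.52). None of these 4 was called by edgeR.

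Levels of the 43 genes spanned a wide range when set per length. On the scale of mean CPM per kb of merged exons, Cyp2e1 had 2412, Cyp3a11 1631, Cyp2c29 677, Cyp2d10 502, Cyp2d9 479, Cyp2f2 477, Cyp2d26 459.8 and Cyp2c50 429. Per kb of the longest coding transcript the top 2 changed places, Cyp3a11 at 3544 and Cyp2e1 at 2840. Por had 94.4 and Cyp2c38 9.72 CPM per kb of exons, and the lowest was Cyp1b1 with 0.204. Together the 43 genes took 2.16% to 3.13% of all counts in a library. Their summed level was 25850 ± 3116 CPM at night and 27910 ± 2942 CPM by day (SD, n = 6 each).

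**Figure D4:**
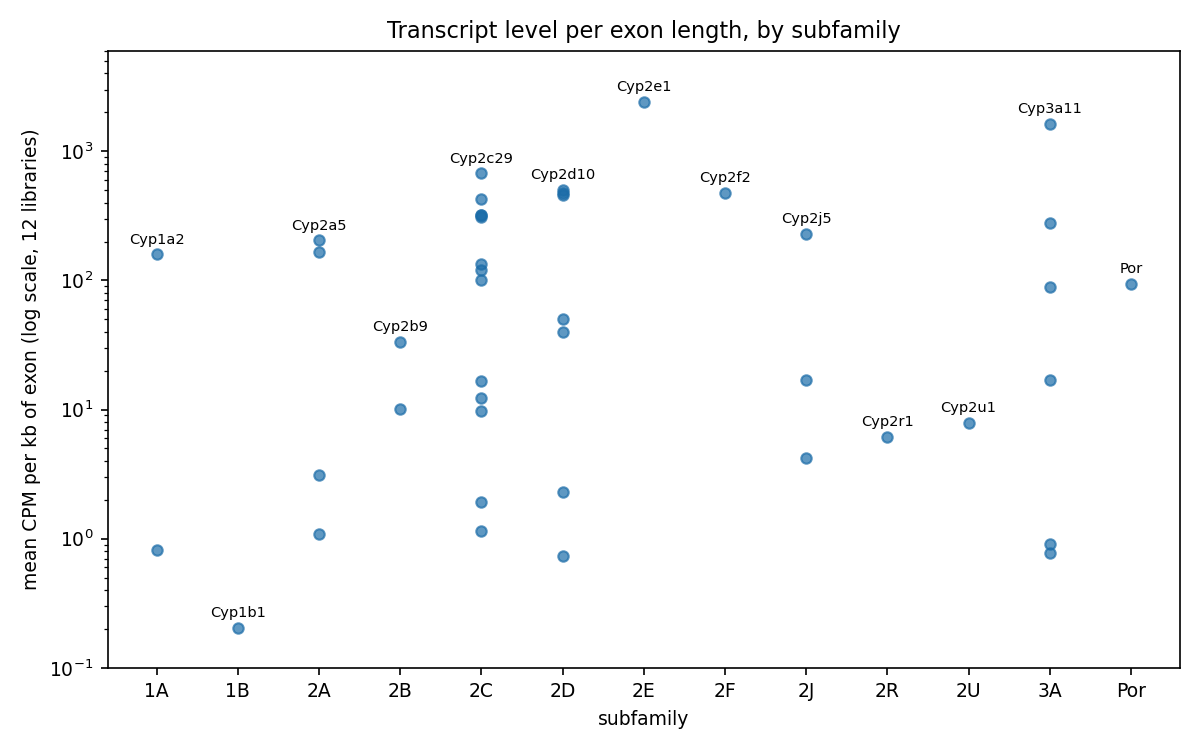
Mean CPM per kb of merged exons over the 12 libraries on a log axis, 1 point a gene, with subfamilies on the x axis and the gene of each that is highest on this scale named. Levels run from 0.204 for Cyp1b1 to 2412 for Cyp2e1.

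Many of these genes were highest in the same libraries. The maximum lay in ZT02 replicate 1 or ZT06 replicate 1 for 20 of the 43 genes (46.5%), against 2170 of the 13133 genes at 1 CPM or more (16.5%). The minimum lay in a ZT10 library for 20 of the 43 (46.5%), against 3023 of those 13133 genes (23%). The libraries named are those that held the most maxima and the most minima of the 43 genes. Their excess over the other genes is partly set by that choice, and the shares are descriptions. Some of the 43 also share sequence windows, so they are not independent. The pericentral hepatocyte markers summed to 1920 to 2604 CPM at night and 2069 to 3060 CPM by day, highest in ZT06 replicate 1. In the night test 0 of the 6 were called by edgeR or DESeq2, with 1 at an unadjusted p under 0.05 in each. Periportal markers summed to 2429 to 4351 CPM at night and 3751 to 7447 CPM by day, highest in ZT10 replicate 1, and edgeR called 1 of 6, Pck1, lower at night. Pck1 alone had 5053 CPM in ZT10 replicate 1. None of the other periportal markers was highest in that library, and none of them was called by edgeR in the night test. Pancreatic acinar markers, 2 of 6 tested, summed to 9.69 to 28.0 CPM at night and 6.35 to 17.4 CPM by day. In ZT14 replicate 2 Cpa1 had 3.12, Pnlip 4.17, Prss2 2.27 and Cela3b 1.38 CPM, each at most 0.107 CPM in any other library. The other markers, Cela1 and Cela2a, were highest in ZT22 replicate 2 (16.9 CPM) and ZT10 replicate 1 (4.46 CPM). Cela2a was nearly as high in ZT14 replicate 2 (4.35 CPM) and had at most 1.30 CPM in the remaining libraries. Erythroid markers summed to 117 to 326 CPM at night and 119 to 377 CPM by day, and lymphocyte markers to 0.778 to 4.26 CPM at night and 2.38 to 3.54 CPM by day. Kupffer, endothelial, stellate and cholangiocyte markers summed to 171 to 277.5, 242 to 321, 307 to 388 and 35.4 to 64.6 CPM at night, and to 204 to 318, 256 to 347, 309 to 367 and 38.4 to 69.9 CPM by day. Both edgeR and DESeq2 called 0 genes of these 4 lists in the night test, with 0, 1, 1 and 1 at an unadjusted p under 0.05. In the 24 h test edgeR called 1 gene of these lists, the endothelial marker Lyve1 (adjusted p = 0.0103, range 2.29-fold). DESeq2 called 1 endothelial and 1 cholangiocyte marker in that test. No marker on any list was at 0 in every library. The part of these cells in the P450 values was not tested.

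**Figure D5:**
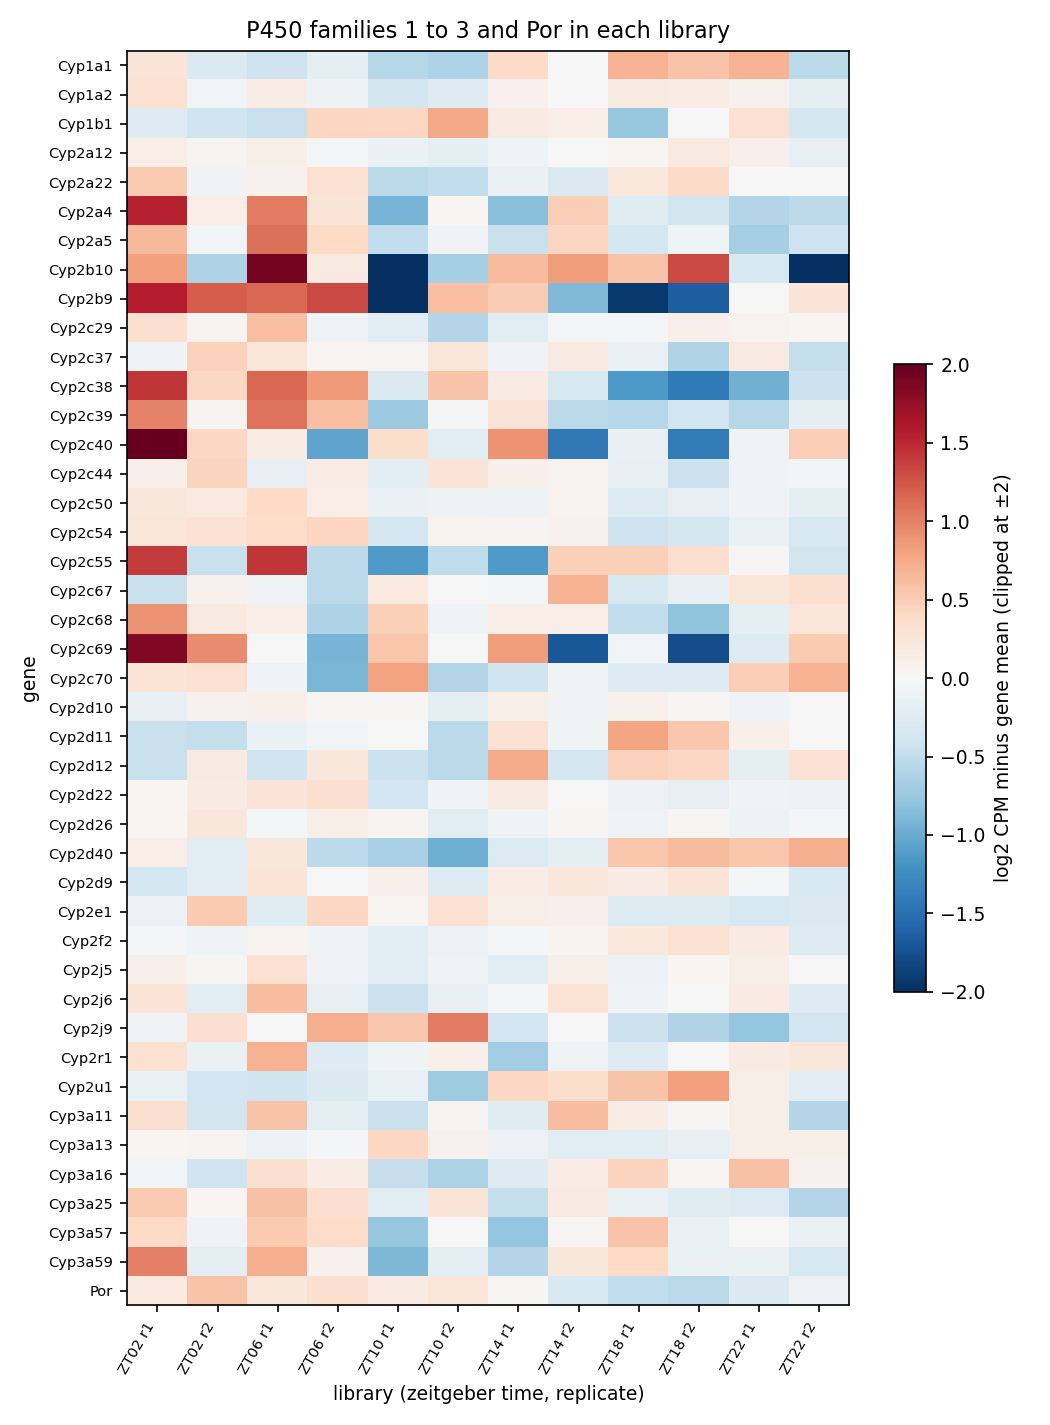
Log2 CPM of the 43 genes in the 12 libraries, each gene centred on its own mean and the libraries in order of zeitgeber time; red is above the mean and blue below. ZT02 replicate 1 and ZT06 replicate 1 hold the maximum of 20 genes and the ZT10 libraries the minimum of 20, and they are named for holding the most.

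The receptors and factors that govern these genes in liver were followed with a list of 18, of which 0 were called higher and 4 lower at night by edgeR, with 9 at an unadjusted p under 0.05 in either direction. DESeq2 called 5 in either direction. The 24 h test of edgeR called 4 of the 18. Of all genes tested, edgeR called 4.80% higher at night, 4.89% lower at night and 12.0% in the 24 h test. Nr1i3 encodes CAR, the phenobarbital-responsive receptor upstream of Cyp2b10. It had 215 to 258 CPM at night (median 232) and 305 to 561 CPM by day (median 397.5), with all night libraries below all day libraries. Averages of 233 ± 14.9 CPM at night and 425 ± 110 CPM by day gave a log2 night minus day of -0.86 ± 0.152 (SD, n = 6 each; SE; adjusted p = 0.00840, edgeR). The 24 h test of Nr1i3 gave an adjusted p of 0.0161, with a peak at ZT5.69, and 0.0759 without ZT02 replicate 1 and ZT06 replicate 2. Dbp encodes the D-box factor known to drive several P450 genes in mouse liver. It had 57.5 to 103.6 CPM at night (median 83.9) and 87.8 to 133 CPM by day (median 109.7), and the groups overlapped. Its log2 night minus day was -0.45 ± 0.0777 (SE; adjusted p = 0.00746; 24 h test, adjusted p = 0.00566, edgeR). Both calls of Dbp held in all 21 alternatives. Stat5b, which carries the growth hormone signal, was lower at night, with a log2 night minus day of -0.30 (adjusted p = 0.0193, edgeR), a call lost without 1 of 5 libraries (ZT02 replicate 2, ZT18 replicate 1, ZT18 replicate 2, ZT22 replicate 1, ZT22 replicate 2, adjusted p 0.0509 to 0.0698). Ppara, the fatty acid receptor, was lower at night, with a log2 night minus day of -0.52 (adjusted p = 0.0355, edgeR), and leaving out 1 library ended the call in 10 of 12 fits (adjusted p 0.0556 to 0.105), all but ZT02 replicate 1 and ZT06 replicate 1. Hnf4a, the hepatocyte master factor, passed the 24 h test (adjusted p = 0.0149, edgeR; 1.61-fold, peaking at ZT11.8) and the test of any time difference (adjusted p = 0.0134, edgeR), and not the night test. Nr1i2, which encodes PXR, had 60.8 to 80.8 CPM at night (median 69.1) and 72.3 to 91.75 CPM by day (median 75.4) and was not called by edgeR, nor was Ahr. These 2 were picked for their role after their values were seen. A second list held 15 other enzymes of oxidation and hydrolysis, among them alcohol dehydrogenase (Adh1, mean 2320 CPM) and retinal dehydrogenase (Aldh1a1, mean 1768 CPM), and edgeR called 0 of the 15 in either test, with 5 at an unadjusted p under 0.05 in the night test. DESeq2 called 1 in each. A further list held 9 P450s known to predominate in females, of which 8 were tested and 1, Cyp2b9, was lower at night. Their summed level was 34.6 to 149 CPM at night and 72.3 to 318 CPM by day, highest in ZT02 replicate 1. Most of that sum came from Cyp2b9, Cyp2c40 and Cyp2c69, with means of 62.9, 33.9 and 20.9 CPM. The rest of the list averaged at most 1.87 CPM each.

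The 14 genes below 1 CPM were Cyp2ab1, Cyp2b13, Cyp2b19, Cyp2b23, Cyp2c65, Cyp2c66, Cyp2d34, Cyp2g1, Cyp2j8, Cyp2j13, Cyp2s1, Cyp3a41a, Cyp3a41b and Cyp3a44. Of these, 8 had enough counts to be tested and 0 were called in any of the 3 tests by edgeR or DESeq2. At an unadjusted p under 0.05 in the night test edgeR had 1 and DESeq2 2. Cyp3a41a and Cyp3a41b, predominant in females, averaged 0.805 and 0.141 CPM.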

How the data were processed

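Exon counts of each gene, raw whole numbers in 1 table of 12 libraries, are as the authors deposited them, and every column was used. Stranded, rRNA-depleted paired-end libraries were made, per the labels' protocols. The submitters' processing notes list STAR 2.4.0i and the build mm10. How reads were counted, with or without strand, and on which annotation is not given in the sources used here. Positions, exon lengths and shared 100-base windows came from GENCODE M21.

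All genes past filterByExpr (minimum count 10, minimum total 15) were scaled by TMM and fitted with glmQLFit and glmQLFTest of edgeR 4.0.16, run in R 4.3.3. A 6-group fit gave night minus day and any time difference; cosine and sine terms gave the 24 h test. The SE is the log2 difference divided by the root of F. Range, peak and 95% interval came from least squares on log2 CPM (prior count 2, 9 residual degrees of freedom), with intervals starting at 1 when the wave could be 0. Alternatives used DESeq2 1.42.0, limma-voom (limma 3.58.1), other scalings and filters, a replicate block, and fits without libraries. The libraries of a time differed beyond counting error (chi-square over degrees of freedom, 16.8 to 100.5). Values per library were given for Por, called genes and the most abundant gene per subfamily by CPM per kb of merged exons. Members and lists were chosen with earlier results of these data known. The fits were tested on simulated data.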

Additional observations from a re-analysis of the deposited data

Results flagged for a closer look

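In 86 sets of 6 libraries, the 43 genes at night and by day, 4 held 1 library set apart from the others by more than Dixon's 95% critical value for a group of that size, where chance gives about 5%. Por had 549.5 CPM in ZT02 replicate 2, against 464 CPM in the next day library (gap over range 0.633). Cyp2c40 had 112 CPM in ZT02 replicate 1, against 36.2 CPM in the next day library (0.765). Cyp3a13 had 346 CPM in ZT10 replicate 1, against 274 CPM in the next day library (0.666). Cyp2a4 had 2.31 CPM in ZT14 replicate 2, against 1.37 CPM in the next night library (0.664). The night and 24 h calls of Por held without ZT02 replicate 2, and the other 3 genes were not called by edgeR.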

How the results depend on the processing

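Over 21 alternatives, 12 of them without 1 library, no call changed direction. Por, Cyp2c38, Cyp2j9, Cyp2u1 and Cyp2d40 kept both the night and the 24 h call in all 21, with adjusted p of at most 0.0416 and 0.0452 in edgeR, limma-voom or DESeq2. Of the 34 genes called in neither test, 28 were called in neither under any alternative. Without 1 library the 43 genes gave 5 to 11 calls in the 24 h test, 2 to 3 higher and 3 to 6 lower at night, and 0 to 8 for any time difference, with 0 without ZT18 replicate 1 or ZT18 replicate 2. All genes gave 1201 to 2225 in the 24 h test, 324 to 804 higher, 287 to 1014 lower and 174 to 897 for any time difference. DESeq2 called 12 of the 43 in the 24 h test and 16 for any time difference, and 3416 and 2532 of all genes. Without ZT02 replicate 2 and ZT06 replicate 1, 3 of the 43 were lower at night, and all genes gave 1276 in the 24 h test, 492 higher and 373 lower. Without ZT02 replicate 1 and ZT06 replicate 2, 3 of the 43 were lower, and all genes gave 568 in the 24 h test and 523 lower. The causes were not tested. Scaling by total counts alone gave 1077 genes higher and 624 lower at night, against 823 and 839 with TMM. Whether replicate numbers pair the samples was not settled. Between pairs of time points, the differences of replicate 1 from replicate 2 correlated at -0.222 to 0.501, and 5 of the 15 values exceeded 0.1. A replicate block left 5 of the 43 in the 24 h test, 3 higher, 4 lower and 6 for any time difference; Cyp3a25 (adjusted p 0.0567) and Cyp2b9 (0.0573) lost the night call and Cyp2c54 (0.0584) the 24 h call. With 2 libraries a time, replicate folds reached 6.61, which limits what can be seen in variable genes.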
